A study of Mus musculus with 2 samples.

Results

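The genes described here mark surface ectoderm and simple epithelium. They are 10 genes chosen by name: the transcription factor genes Trp63, Tfap2a, Tfap2c, Grhl2 and Grhl3, the keratin genes Krt8, Krt18 and Krt19, the desmosome-associated membrane protein gene Perp, and Esrp1, which encodes an epithelial splicing regulator. They were measured in the posterior part of mouse embryos that had reached 13 somites. Cdx2+/-Cdx4-/- embryos, which carry 1 mutated Cdx2 copy and no intact Cdx4, were set against wildtype embryos, and the tissue was cut at the same axial level in each. RNA of 7 embryos per genotype was pooled, and the pools were hybridised together on a dual-colour oligonucleotide array and again with the dyes exchanged. The Cdx2+/-Cdx4-/- pool was labelled with Cy5 on replicate 1 and with Cy3 on replicate 2. The arrays were read as the same 2 pools measured in both dye orientations, because the labels describe no separate pools. There is therefore 1 sample per genotype, no p-value is given, and each SD is the technical spread of 2 arrays. In pooled tissue, fewer cells of a type and less RNA per cell cannot be told apart.

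Surface ectoderm is the single-layered epithelium that covers the embryo and later forms the epidermis. Trp63 is required for it to become a stratified epithelium, the AP-2 factors Tfap2a and Tfap2c act in early epidermal commitment, and the grainyhead factors Grhl2 and Grhl3 maintain epithelial junctions and are needed for closure of the neural tube. Krt8, a type II keratin, pairs with the type I keratins Krt18 and Krt19 to build the intermediate filaments of single-layered epithelia, which include gut endoderm and notochord as well as surface ectoderm. Perp is a target of Trp63 and Esrp1 directs the epithelial form of transcripts such as that of Fgfr2.

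Of the 10 genes, 9 were matched to 14 probes by RefSeq accession. The files carry older names for several of them, among them Tcfap2a, Tcfap2c, Tcfcp2l3 for Grhl2, Krt2-8, Krt1-18, Krt1-19 and 2210008M09Rik for Esrp1. No probe matched Grhl3, which was not analysed here. A probe counted as detected when the scanner software marked it well above background in the same genotype on both arrays. By this rule 12 of the 14 probes and 8 of the 10 genes were detected. The exceptions were the only Tfap2a probe, not well above background in either pool on either array, and the dimmer of the Grhl2 probes. No member spot was saturated. The brightest detected probe stood for a gene.

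None of the 8 detected genes differed between the pools by 1.5-fold or more in the same direction on each array. Over all 25853 detected genes, 0.441% passed that rule, 0.209% higher and 0.232% lower in the Cdx2+/-Cdx4-/- pool, so a count of 0 among 8 is near the background. None of the 8 passed 1.3-fold on each array either, against 1.29% of all detected genes. Their mean log2 ratios, Cdx2+/-Cdx4-/- over wildtype, ran from -0.23 for Krt8 to 0.28 for Krt18. The median of the 8 was 0.10, a 1.07-fold difference, beside 0.00 for all detected genes. It was 0.10 on replicate 1 and 0.10 on replicate 2. Of the 8 genes, 5 lay above 0 on both arrays, against 23.3% of all detected genes, and 2 lay below 0 on both, against 24.4%. Esrp1 was the 1 gene with opposite signs. Krt19 was among the 5 only at 0.00 on replicate 2, and with each array centred on its median in place of loess 1 of the 8, Tfap2c, lay above 0 on both. The median of the 8 was then 0.05. In the keratins the shifts went both ways, with Krt18 highest and its filament partner Krt8 lowest of the 8.

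On the same arrays Cdx4 was 5.75-fold lower in the Cdx2+/-Cdx4-/- pool (log2 ratio -2.52 ± 0.12, SD of 2 arrays). Cdx2 was at -0.05 ± 0.09 on its brighter probe. Whether these probes lie inside the parts removed from the mutated alleles is unknown here. Between 77.4% and 82.5% of the 41174 gene spots were well above background in each channel. The SD between arrays, pooled over all detected genes, was 0.19 on the log2 scale. Over 7 probes printed 20 times on each array, the SD of single spots gives an SD of 0.14 for the mean of 2 arrays. Each member probe was printed once per array.

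**Figure D1:**
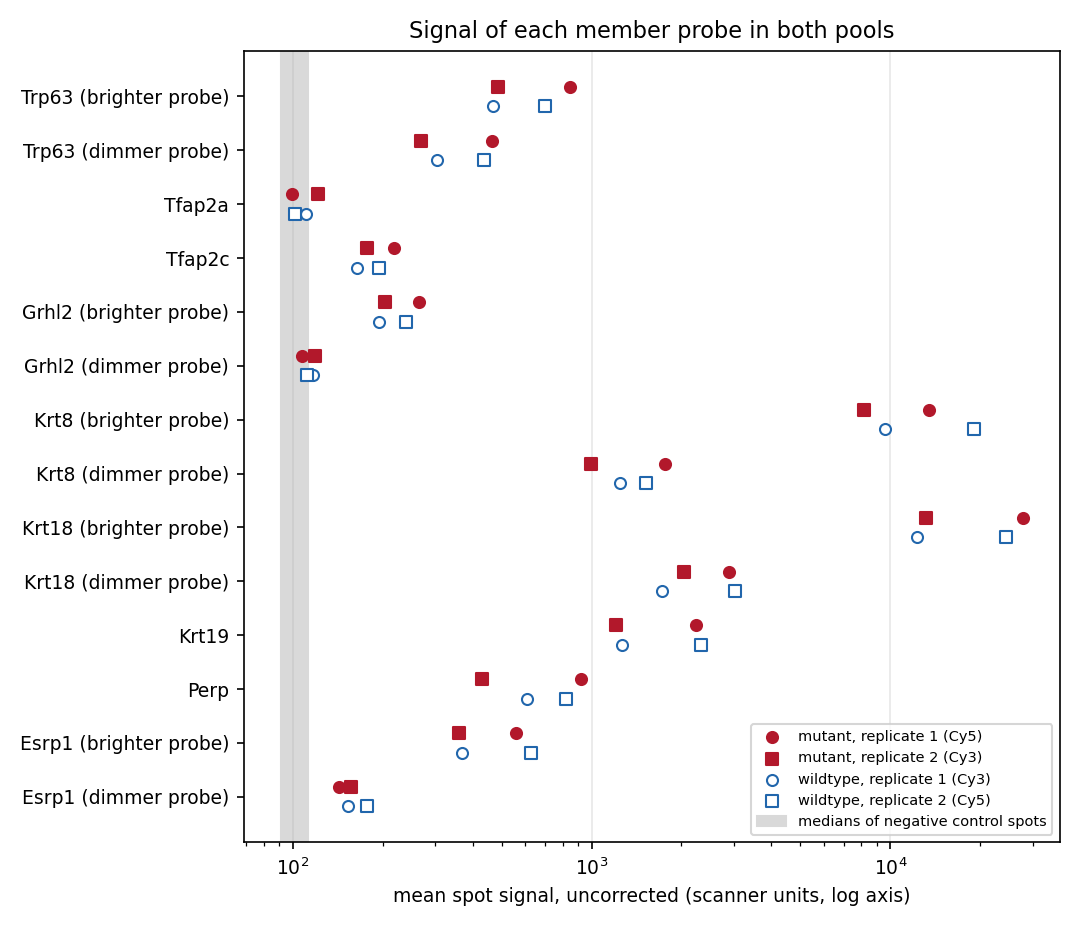
Mean spot signal of each member probe before any correction, in scanner units on a log axis, with the Cdx2+/-Cdx4-/- pool as filled red marks above the wildtype pool as open blue marks, and circles for replicate 1 and squares for replicate 2. The grey band spans the medians of the negative control spots, 91.3 to 113, and the Tfap2a probe lies in or next to it while the brighter Krt8 probe is at or above 8177 in every channel.

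Among the transcription factor genes, Trp63 was measured by probes at chr16:25741673-25741732 and chr16:25738909-25738968 in the files' coordinates, which come without a named genome build. The brighter Trp63 probe had signals of 847 in Cy5 and 485 in Cy3 for the Cdx2+/-Cdx4-/- pool, against 468 in Cy3 and 697 in Cy5 for the wildtype pool. Within each dye the Cdx2+/-Cdx4-/- signal was the higher. After background correction and loess normalization the arrays gave log2 ratios of 0.24 and 0.28, a mean of 0.26 ± 0.03 or 1.20-fold. The dimmer Trp63 probe had 463 and 268 in the Cdx2+/-Cdx4-/- pool, against 305 and 435 in wildtype, and its log2 ratios of 0.08 and -0.08 averaged 0.00 ± 0.11. The probes of this gene thus differed by 0.26, as much as the larger of their means.

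Tfap2c had signals of 218 and 177 in the Cdx2+/-Cdx4-/- pool, against 164 and 194 in the wildtype pool, on replicates 1 and 2. Its log2 ratio was 0.20 on each array, a 1.15-fold difference. Tfap2c was a dim probe, and its size depended on the correction: it was 0.16 without background subtraction, 0.26 with a smaller offset of 16 in place of 50, and 0.32 with the scanner software's own ratio, where the arrays gave 0.47 and 0.18. The sign was the same in each of these. Tfap2a gave 99.7 and 121 in the Cdx2+/-Cdx4-/- pool, against 111 and 102 in the wildtype pool, beside medians of the negative control spots of 91.3 to 113. All but the 121 lay within that range, which spans both dyes. By dye, the control medians were 91.3 and 92.2 in Cy5 and 109 and 113 in Cy3. Each Tfap2a signal lay above the control median of its own channel but was not marked well above background. A ratio of such signals is no measurement of a difference, so none is given for Tfap2a.

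Grhl2 had 264 and 203 in the Cdx2+/-Cdx4-/- pool, against 195 and 240 in the wildtype pool, on its brighter probe at chr15:37423939-37423998. Its log2 ratios of 0.11 and 0.22 averaged 0.16 ± 0.07, or 1.12-fold. The dimmer Grhl2 probe, listed across chr15:37352221-37370272, had signals of 108 and 119 in the Cdx2+/-Cdx4-/- pool, against 117 and 112 in wildtype, and was well above background in Cy5 alone on each array. Its log2 ratios were 0.00 and -0.07. All 3 detected transcription factor genes lay above 0 on both arrays by the probes that stood for them, against 23.3% of all detected genes. Their median was 0.20, while the second probes of Trp63 and Grhl2 averaged 0.00 and -0.03. With each array centred on its median in place of loess, only Tfap2c lay above 0 on both arrays. Trp63 then had 0.66 and -0.27, and Grhl2 had 0.33 and -0.07.

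The keratin genes included the brightest member probes. Krt18, the type I partner of Krt8, had 27712 and 13150 in the Cdx2+/-Cdx4-/- pool, against 12239 and 24430 in the wildtype pool, on its brighter probe at chr15:102511822-102511881. The log2 ratios of 0.30 and 0.26 averaged 0.28 ± 0.03, or 1.21-fold, the highest of the 8. Its dimmer probe at chr15:102510655-102510825 had 2883 and 2039 in the Cdx2+/-Cdx4-/- pool, against 1718 and 3021 in wildtype, with log2 ratios of -0.02 and 0.43 and a mean of 0.20 ± 0.32. The Krt18 probes thus had means of the same sign, but the dimmer one varied between the arrays by more than its mean.

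Krt8 lay at the other end of the range. Its brighter probe at chr15:102484769-102484828 had 13505 and 8177 in the Cdx2+/-Cdx4-/- pool, against 9564 and 19090 in the wildtype pool. The log2 ratios were -0.36 and -0.10, with a mean of -0.23 ± 0.18, or 1.17-fold lower. The dimmer Krt8 probe at chr15:102479182-102479241 had 1762 and 999 in the Cdx2+/-Cdx4-/- pool, against 1246 and 1518 in wildtype, and its log2 ratios of -0.25 and 0.31 pointed in opposite directions (mean 0.03 ± 0.40). The direction of Krt8 therefore rested on 1 probe.

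Although Krt8 and Krt18 form filaments together, their ratios did not run together on the brighter probes. This pair was set side by side after its values were seen. The Krt18 log2 ratio exceeded that of Krt8 by 0.66 on replicate 1 and 0.36 on replicate 2, a mean difference of 0.51 ± 0.22. The mean difference was likewise 0.51 without background subtraction, with the smaller offset, with median centring and with the scanner software's ratio. These settings act almost alike on both of these bright probes of an array, so they could hardly move the difference. Their agreement is therefore no separate support for it. On the dimmer probes the difference had the same sign at 0.22 and 0.11, a mean of 0.17 ± 0.08. No test applies to this pair.

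Krt19, which also pairs with Krt8, had 2240 and 1207 in the Cdx2+/-Cdx4-/- pool, against 1261 and 2319 in the wildtype pool. Its log2 ratios of 0.08 and 0.00 averaged 0.04 ± 0.06, smaller than the spread between the arrays. The 3 keratin genes had a median of 0.04.

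**Figure D2:**
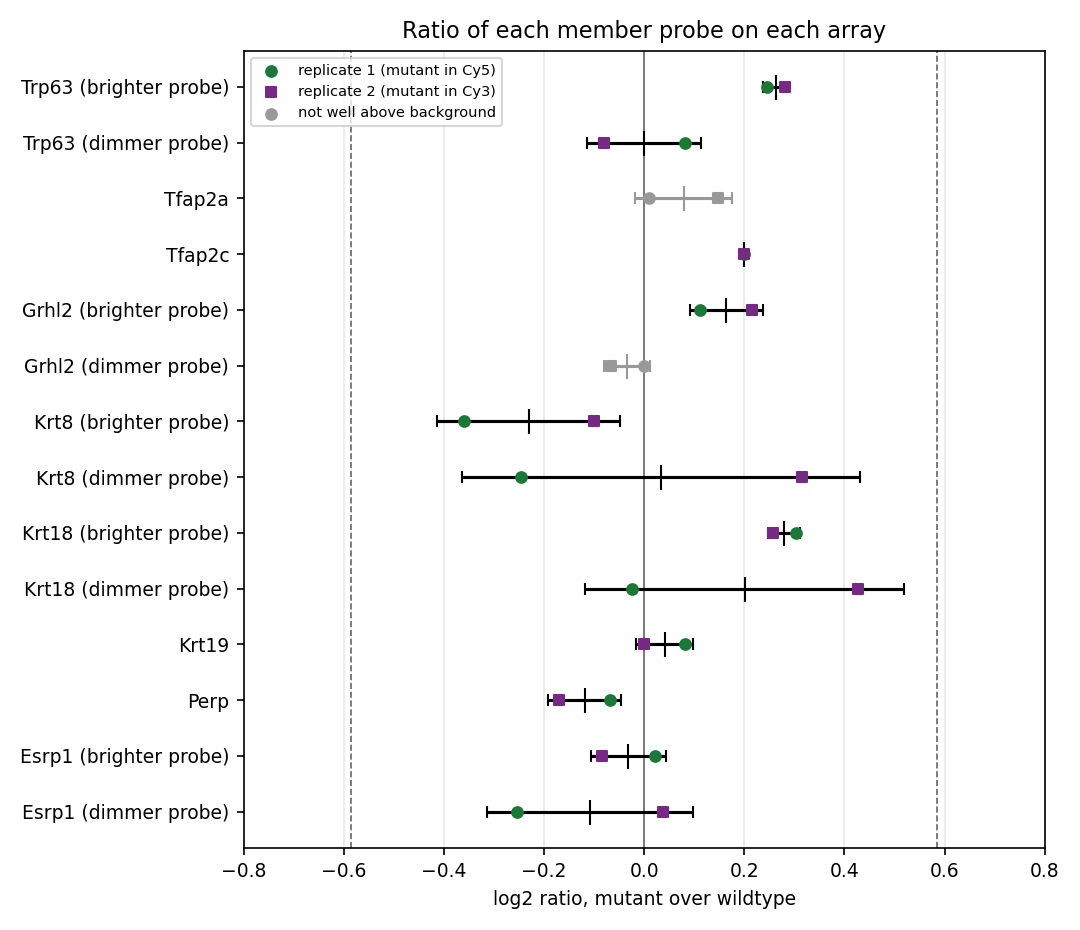
Log2 ratio of Cdx2+/-Cdx4-/- over wildtype for each member probe on replicate 1 (circles) and replicate 2 (squares), with the mean as a vertical tick and the SD of 2 arrays as the bar. Grey marks are the Tfap2a probe and the dimmer Grhl2 probe, dashed lines are 1.5-fold, and every mark lies between them.

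Because the AP-2 factors are members and keratin genes lie among the genes of the epithelial programme, the promoters of the Krt8 and Krt18 pair were read for motifs. The RefSeq promoter table (GRCm38.p6) held entries for 4 of the 10 genes, Grhl3, Tfap2a, Krt8 and Krt18. Each window below runs from 250 bases before the annotated start to 30 bases from it, 5′ to 3′ on the gene's strand, and capitals mark motif matches. Krt8 lies on the minus strand at chr15:102004313-102004592 and Krt18 on the plus strand at chr15:102027966-102028245.
Krt8: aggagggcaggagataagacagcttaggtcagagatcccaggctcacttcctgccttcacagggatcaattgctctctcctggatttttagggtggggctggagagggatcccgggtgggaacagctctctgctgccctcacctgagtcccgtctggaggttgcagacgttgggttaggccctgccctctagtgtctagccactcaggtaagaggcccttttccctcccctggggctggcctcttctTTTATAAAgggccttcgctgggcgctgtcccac
Krt18: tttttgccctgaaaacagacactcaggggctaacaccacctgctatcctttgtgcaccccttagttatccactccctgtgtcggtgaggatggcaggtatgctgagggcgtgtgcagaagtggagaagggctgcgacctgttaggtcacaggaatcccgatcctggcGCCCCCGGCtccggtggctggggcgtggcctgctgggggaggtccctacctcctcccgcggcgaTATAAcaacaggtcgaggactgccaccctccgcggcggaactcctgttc

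The motifs searched on both strands were the AP-2 motif GCCNNNGGC, the GC box GGGCGG, the TATA motif TATAA, the grainyhead motif AACCGGTT and the caudal core TTTAT. The last of these can overlap the TATA motif, as it does in Krt8. Counted from 1 at the 5′ end of the window, where the annotated start is base 251, Krt18 held an AP-2 match at bases 168 to 176 and TATAA at bases 232 to 236. Krt8 held TATAA at bases 250 to 254 inside a stretch that also matches TTTAT on each strand, and no AP-2 match. Of 32851 promoter windows of this length in the table, 15.4% held the AP-2 motif, 34.7% the GC box, 24.0% TATAA, 0.131% the grainyhead motif and 38.9% TTTAT. A match is a description of these letters, and none of them was tied to the ratios.

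Perp had 921 and 429 in the Cdx2+/-Cdx4-/- pool, against 606 and 824 in the wildtype pool, from its probe at chr10:18553924-18553983. The arrays gave log2 ratios of -0.07 and -0.17, with a mean of -0.12 ± 0.07 or 1.09-fold lower. Perp thus had the opposite sign from the brighter probe of Trp63, the factor that activates it, although the 2 genes' values were both within 1.3-fold. The dimmer Trp63 probe averaged 0.00. The Perp mean was also smaller in size than the SD of 0.14 that single spots give for a mean of 2 arrays.

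Esrp1 had 560 and 360 in the Cdx2+/-Cdx4-/- pool, against 369 and 629 in the wildtype pool, on its brighter probe at chr4:11312975-11313034. Its log2 ratios were 0.02 and -0.09, a mean of -0.03 ± 0.08. The dimmer Esrp1 probe at chr4:11305663-11305722 had 143 and 157 in the Cdx2+/-Cdx4-/- pool, against 153 and 177 in wildtype, with log2 ratios of -0.25 and 0.04 and a mean of -0.11 ± 0.21. Neither Esrp1 mean exceeded its spread.

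In order from highest to lowest, the log2 ratios were 0.28 for Krt18, 0.26 for Trp63, 0.20 for Tfap2c, 0.16 for Grhl2, 0.04 for Krt19, -0.03 for Esrp1, -0.12 for Perp and -0.23 for Krt8. Neighbours in this order differed by at most 0.12, between Grhl2 and Krt19, less than the SD of 0.14 that single spots give for a mean of 2 arrays. For the 5 genes with 2 probes, the brighter minus the dimmer probe was 0.26 for Trp63, 0.20 for Grhl2, 0.08 for Krt18, 0.08 for Esrp1 and -0.26 for Krt8. Taking the dimmer detected probe, an alternative chosen after seeing the data, brought the median of the 8 genes to 0.04.

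Ratios of dim genes are compressed by the offset, so the members were also read against genes in broad steps of brightness. Among 17017 detected genes with a mean log2 intensity below 8, the 5th to 95th percentiles of the log2 ratio were -0.19 to 0.15. Tfap2c and Grhl2 both lay above that range. This step also holds genes dimmer than Tfap2c (7.18) and Grhl2 (7.52), whose ratios are compressed more. Among 5659 genes from 8 to 10 they were -0.26 to 0.22, with Trp63 above and Perp and Esrp1 inside. Among 3177 genes at 10 and above they were -0.24 to 0.21, with Krt18 above and Krt8 and Krt19 inside. These ranges describe the arrays and are no test. The second probes of Trp63, at 0.00, and Krt18, at 0.20, lay inside them. So did that of Grhl2, at -0.03, which was not detected.

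The dye exchange mattered for these probes. When each array was only centred on its median instead of being fitted by loess, the members took opposite signs on the arrays in all but 1 case. Krt18 had 0.89 on replicate 1 and -0.57 on replicate 2, Krt19 had 0.57 and -0.65, and Perp had 0.37 and -0.72. Relative to the median of the array, Cy5 was thus the brighter channel for these genes whichever pool it carried. Tfap2c, at 0.33 and 0.03, kept the same sign. The means of both arrays then ran from -0.35 for Krt8 to 0.20 for Trp63, with a median of 0.05, and Krt19 changed sign to -0.04.

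**Figure D3:**
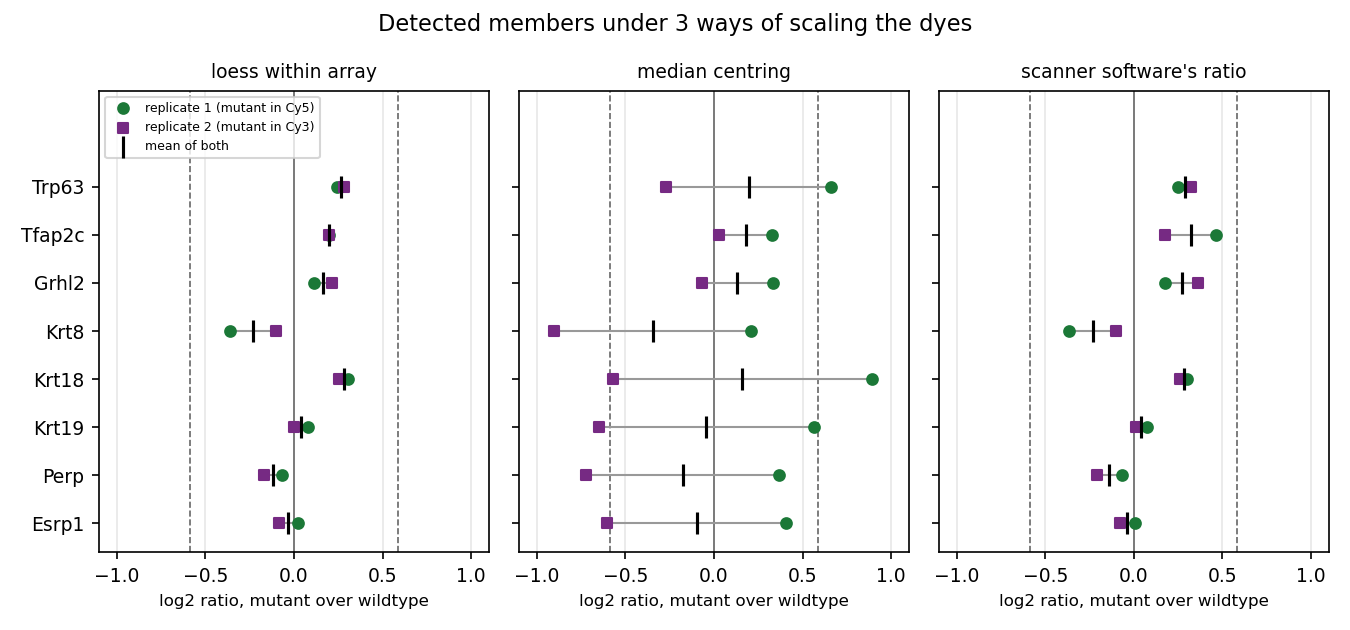
Log2 ratio of Cdx2+/-Cdx4-/- over wildtype for the 8 detected genes on replicate 1 (circles) and replicate 2 (squares), with the mean as a tick, after loess, after median centring and as the scanner software's ratio. Dashed lines are 1.5-fold, and the arrays lie farthest apart after median centring, as for Krt18 at 0.89 and -0.57.

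Other genes of the epithelial programme did not pass the rule either. Over 7 lists with 63 distinct detected genes, none passed 1.5-fold on each array, against 0.441% of all detected genes. The median log2 ratio was 0.01. Of the 63, 24 lay above 0 and 15 below 0 on both arrays, against 23.3% and 24.4% of all detected genes. The lists, like the members, were chosen with earlier results of these data known. Among 15 other surface ectoderm regulators and signals the median was 0.01, and the value farthest from 0 was that of Wnt6, a ligand made by surface ectoderm, at 0.53 ± 0.02. Wnt6 came nearest to the rule, with 0.52 and 0.54 on the arrays.

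Among the AP-2 and grainyhead relatives, 6 detected genes had a median of 0.03, with Tfap2d at 0.19 ± 0.21 and Tfap2b at 0.15 (0.15 and 0.16 on the arrays). The 5 other detected keratins had a median of 0.07, with Krt7, a keratin of simple epithelium, at 0.33 ± 0.15 and Krt17 at -0.17 ± 0.41. The 10 detected genes of basal epidermis and its basement membrane had a median of 0.07. In that list Frem2, an extracellular matrix protein of the epidermal basement membrane, was at 0.48 ± 0.16 and the linker protein gene Plec at -0.31 ± 0.04.

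The 17 detected adhesion, tight junction and desmosome genes had a median of 0.01, with Cdh1 (E-cadherin) at 0.21 ± 0.08 and the desmosomal plaque gene Pkp2 at -0.30 ± 0.11. Of the epithelial proteases and their inhibitors, St14 (matriptase) was at -0.28 ± 0.05 and Spint2 at -0.05 ± 0.01, with a median of -0.05 over 3 genes. Esrp2, the relative of Esrp1, was at -0.10 ± 0.02, and its list of 7 genes, with Enah at 0.14 ± 0.23, had a median of 0.00. Which transcript forms these probes detect was not tested.

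Genes of mesenchyme and of the transition from epithelium to mesenchyme were read as the opposite programme. None of 9 detected genes passed the rule, and the median was -0.07. Vim, the mesenchymal intermediate filament gene, was at -0.51 ± 0.01 (-0.52 and -0.50, 1.42-fold lower) and Snai1, a repressor of Cdh1, at -0.45 ± 0.20. The difference between these genes and the members was not tested.

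Some members are also expressed in other tissues of the region, so the markers of those tissues were read beside them, and their part in the members' values was not tested. In the hindgut endoderm list, 3 of 9 detected genes were past the rule, Trh (log2 ratio 1.98 ± 0.53), Nepn (1.87 ± 0.09) and Spink1 (1.01 ± 0.10). The median of the list was 0.03, or 0.26 with replicate 1 left out and 0.11 with replicate 2 left out. The summed signal of those 9, after normalization of each channel, was 3696 and 3703 in the Cdx2+/-Cdx4-/- pool, against 2821 and 2721 in the wildtype pool. That sum includes the 3 genes past the rule, so it does not show a rise across the list. The other 6 genes had mean log2 ratios from -0.29 to 0.33. Cldn8, also in that list, was not well above background. In the notochord list, where Krt8, Krt18 and Krt19 are also active, none of 5 passed, with Brachyury (T) at -0.49 ± 0.03, the endoderm and notochord factor Foxa2 at 0.33 ± 0.10, and a median of 0.02. T made up 78.5% to 85.4% of the list's summed signal in each channel, and the other 4 genes summed to 1355 and 1471 in the Cdx2+/-Cdx4-/- pool, against 1211 and 1308 in the wildtype pool.

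The next lists are of tissues in which AP-2 factors or keratins are also used. None of 8 neural crest genes (median 0.07, Ets1 at -0.56 ± 0.07) and none of 8 germ cell genes (median 0.00, Kit at -0.40 ± 0.03 and Dppa3 at 0.26 ± 0.03) passed. Of 7 trophoblast genes Plac1 was lower (-1.03 ± 0.16), with a median of -0.12 and Ascl2 at -0.26 ± 0.31. Only 4 of these 7 were well above background in the Cdx2+/-Cdx4-/- pool on both arrays, against all 7 in the wildtype pool. Without the detection filter the median was likewise -0.12 over 7 genes. Ascl2 was dim, at a mean log2 intensity of 6.18. The trophoblast median was -0.05 on either single array and -0.34 with the scanner software's ratio. Of 6 mesothelium, amnion and allantois genes Postn was higher (0.73 ± 0.12), with a median of 0.04 and Tbx4 at -0.12 ± 0.09. None of 6 nephric duct genes passed (median 0.14, or 0.01 with replicate 2 left out, Lhx1 at 0.49 ± 0.73 and Emx2 at 0.28 ± 0.19), and none of 6 visceral endoderm and yolk sac genes (median 0.02, Amn at 0.42 ± 0.07 and Rbp4 at 0.31 ± 0.37).

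Mesoderm, vessels and neural tube had markers past the rule. Of 5 detected paraxial mesoderm genes (Pax1 and Uncx were not well above background), Meox1 (2.12 ± 0.02), Tcf15 (2.02 ± 0.01) and Foxc2 (1.35 ± 0.17) were higher, while Tbx6 at 0.06 ± 0.16 and Msgn1 at -0.12 ± 0.03, named to complete the list, were not. The list had a median of 1.35, which was 0.14 without the detection filter. Its summed signal, which includes the 3 genes past the rule, was 3974 and 3530 in the Cdx2+/-Cdx4-/- pool, against 2656 and 2178 in the wildtype pool. All 7 endothelial genes lay below 0 on both arrays, against 24.4% of all detected genes. Cldn5 (-1.06 ± 0.21) and Sox18 (-0.70 ± 0.08) were past the rule, and the median was -0.37. The summed signal of these 7 was 2292 and 2169 in the Cdx2+/-Cdx4-/- pool, against 3456 and 3535 in the wildtype pool. Of 6 neural tube genes Sox2 was higher (0.81 ± 0.08), with Irx3 at 0.46 ± 0.25 and a median of 0.20, or 0.04 with replicate 2 left out. For the 8 surface ectoderm and simple epithelium genes the summed signal was 33011 and 35933 in the Cdx2+/-Cdx4-/- pool, against 31819 and 33518 in the wildtype pool, of which Krt8 and Krt18 made up at least 88.9% in each channel. The other 6 genes summed to 3671 and 3600 in the Cdx2+/-Cdx4-/- pool, against 3478 and 3537 in the wildtype pool.

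**Figure D4:**
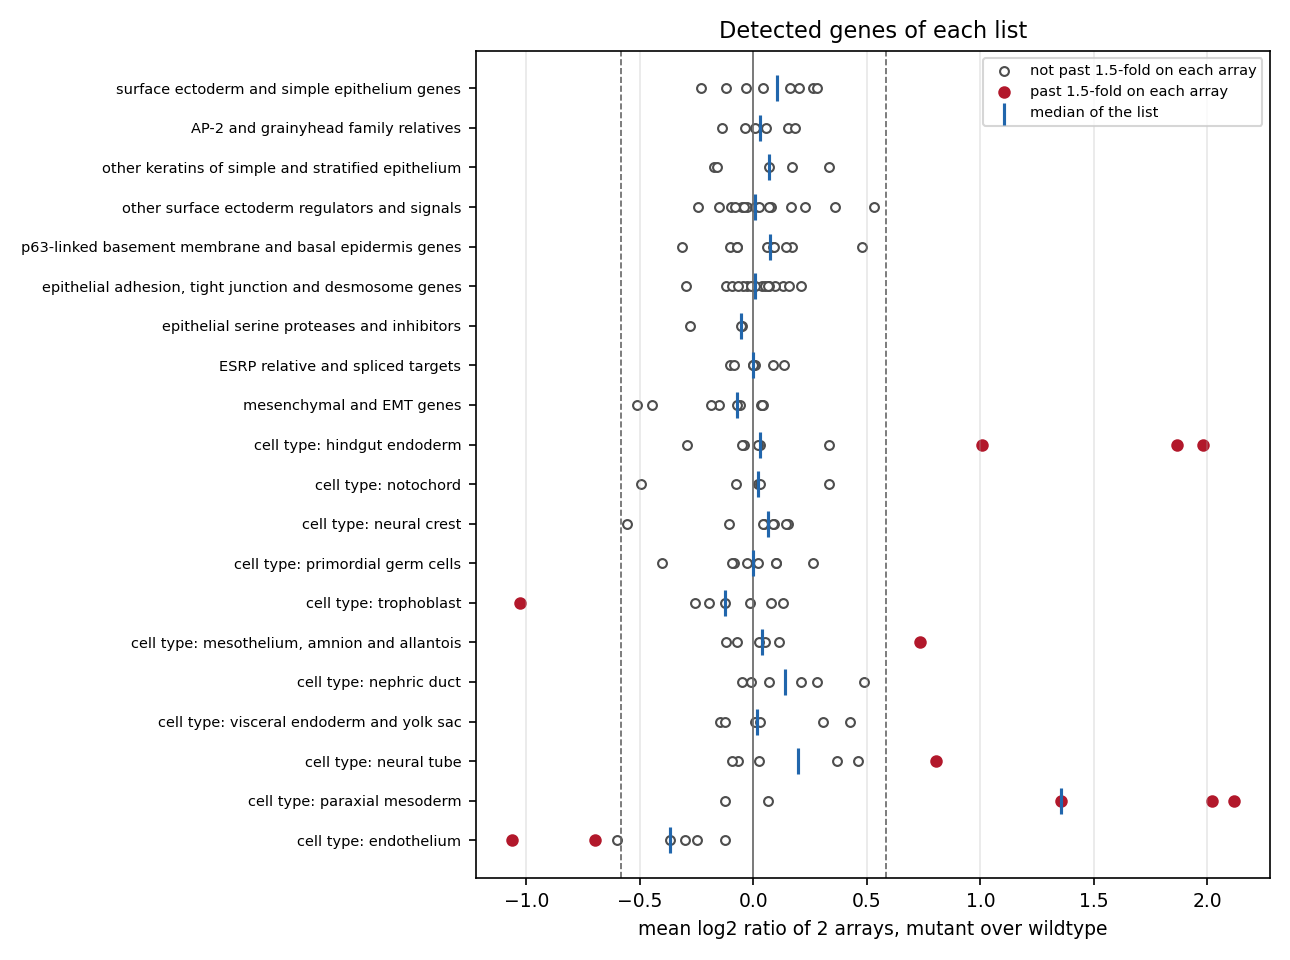
Mean log2 ratio of 2 arrays, Cdx2+/-Cdx4-/- over wildtype, for the detected genes of each list, as open circles, with filled red circles for genes past 1.5-fold on each array and a blue tick for the list median. The 8 surface ectoderm and simple epithelium genes lie between -0.23 and 0.28, while red circles appear in the hindgut endoderm, trophoblast, mesothelium, neural tube, paraxial mesoderm and endothelium lists.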

How the data were processed

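RNA pools of 7 embryos per genotype were compared on 2 dual-colour arrays with the dyes exchanged. The deposited intensity values are mean spot brightness and median local background in Cy3 and Cy5, uncorrected, per the file headers. The scanner software also wrote a log10 ratio of red (Cy5) to green (Cy3), deposited with spatially detrended background and dyes balanced by LOWESS, as the headers record. Agilent Feature Extraction is version 7.5.1 there and 9.5.3 in the submitters' processing notes.

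From these, signals were background-corrected by normexp (offset 50, limma 3.58.1, R 4.3.3) on all 43430 spots and loess-normalized within each array with control spots at weight 0. Non-uniform spots were left out (205 and 90), spots of a probe averaged, and ratios turned to Cdx2+/-Cdx4-/- over wildtype by the labelled dyes. Summed signals were taken after loess and Aquantile normalization. Names came from RefSeq (GRCm38.p6): 19435 of 41013 probes by accession, 3620 by symbol and 2908 by synonym. Another 556 had several candidates and got no name, and 14494 kept the files' name. The offset pulls the ratios of dim probes towards 0. The number of arrays limits the precision.

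With 1 pool per genotype no test was made; genes past 1.5-fold on each array were counted. The steps were tested on simulated arrays with a constant factor between the dyes. A dye difference that changes with brightness was not simulated, so the loess step was not tested against one. The members and lists were chosen with earlier results of these data known. Named were all members, Cdx2 and Cdx4, and from each other list the genes past the rule and the 2 farthest from 0, of which 1 gene is not reported here. Alternatives varied the background correction, dye scaling, probe choice, filter, threshold and arrays. Proteins and probe sequences were not used here.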

Additional observations from a re-analysis of the deposited data

How the results depend on the processing

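No paired analysis was possible because each genotype has only 1 pool, so the within-array ratios have no replicate pools behind them. The count of members past 1.5-fold was 0 under every alternative run, single arrays and 1.3-fold included. Against 0.10, the members' median was 0.085 without background subtraction, 0.12 with an offset of 16 and 0.045 with median centring. It was 0.16 with the software's ratio, 0.086 by the median over probes, 0.037 with the dimmer probe, and 0.096 to 0.10 on single arrays. Without a detection filter Tfap2a joined as the middle value. The median of 0.078 was then the Tfap2a ratio itself, which is no measurement of a difference. Trp63 was at 0.00 with the dimmer probe. Signs turned for Krt8 at 0.03 with the dimmer probe, Krt19 at -0.04 with median centring, and Esrp1 at 0.02 with replicate 2 left out. Over all genes, against 114 past the rule, counts were 43 with median centring, 355 with the software's ratio, 27 at 2-fold, 333 at 1.3-fold and 444 to 556 on single arrays. The share of these genes that was higher in the Cdx2+/-Cdx4-/- pool was 62.8% with median centring and 74.1% at 2-fold against 47.4%, and it was 71.6% without replicate 1 and 16.5% without replicate 2, so that direction turns with the array. Of 19 other list medians, 10 turned sign under at least 1 alternative, among them that of basal epidermis at -0.04 with the dimmer probe and that of proteases, at 0.04 without replicate 1 and -0.23 without replicate 2. The cause of these changes was not tested. Among the members, signal over background limits Tfap2a, Tfap2c and Grhl2. It also limits dim genes of the other lists and the medians that include them. Among these are Ascl2, Tfap2d, Krt17, Tfap2b and Esrp2, at mean log2 intensities of 6.18 to 6.78, below the 7.18 of Tfap2c.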
